A study of Mus musculus with 42 samples.

Results

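Pank1, Pank2, Pank3 and Pank4 make up the mouse pantothenate kinase family. They were taken by gene symbol from the count tables of 2 experiments, and these 4 genes are 4 of 18825 rows in experiment 1 and 4 of 19866 rows in experiment 2. All 4 passed the filter on low counts in both. Pank3 was selected on its measured difference in IP to input ratio between tagged cells and libraries labelled Trim71KO, without a numerical threshold. That difference is therefore given as a description with no test. The paralogs were added for comparison.

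The data are RIP-seq, the sequencing of RNA that is pulled down with a protein. Mouse embryonic stem cells of 129S6/SvEvTac origin were lysed and an aliquot was kept as input. HA-tagged Tnrc6a and its bound RNA were collected on anti-HA magnetic beads as the IP. All cells carry the reporter GFP_5xT71BS and, per the growth protocol, a stable FLAG-Cas9 T2A Blasticidin insertion, and all were grown in medium with serum and LIF. Untagged cells have no further allele in their label. Tagged cells carry HA-AVI-Tnrc6a. Trim71KO cells carry HA-AVI-Tnrc6a and are Trim71-/-. Ago2KO cells carry HA-AVI-Tnrc6a, are Ago2-/- and occur in experiment 2 alone. Each genotype has 3 input and 3 IP libraries in an experiment, from cells grown in triplicate dishes. Whether each line is a single clone is not given in the sources used here, so p-values measure the spread between these dishes of a line and not between independently made lines.

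Pantothenate kinases phosphorylate pantothenate (vitamin B5), the first and rate-controlling step of coenzyme A synthesis. Pank1, Pank2 and Pank3 encode active kinases, and human PANK2 is the gene mutated in pantothenate kinase-associated neurodegeneration. Pank4 encodes a family member that lacks kinase activity in mammals and has a phosphatase domain. Tnrc6a is a GW182 protein, the partner through which Argonaute proteins loaded with microRNAs silence mRNAs. Ago2 is an Argonaute protein, and Trim71 binds mRNAs of stem cells and lowers the levels of its targets.

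By RefSeq (GRCm38.p6), Pank1 spans chr19:34806935-34883423 on the minus strand and Pank2 spans chr2:131262008-131299188 on the plus strand. Pank3 spans chr11:35769495-35791285 and Pank4 spans chr4:154964123-154980940, both on the plus strand. The spans of the 3 active kinase genes hold the microRNA genes Mir107 (in Pank1), Mir103-2 (in Pank2) and Mir103-1 (in Pank3), each on the strand of its host. The mature 3p microRNAs are printed because the hosts are the genes described here, with the seed (bases 2 to 8) in capitals. Both share the seed.
mmu-miR-103-3p: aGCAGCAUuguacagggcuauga
mmu-miR-107-3p: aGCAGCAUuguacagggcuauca
Mir103-1 and Mir103-2 give the same mature 3p sequence. Of these 3 microRNA genes 0 have a row in the count tables, so the values below are of the host genes' RNA alone.

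Total counts ran from 12587257 to 23657840 per library in experiment 1 and from 16296447 to 21026552 in experiment 2. Member counts ran from 152 (Pank1) to 15842 (Pank3) per library. Ago2 RNA in input fell by 1.12 on the log2 scale from tagged to Ago2KO cells (SE 0.10, edgeR adjusted p 2.52e-08). Trim71 RNA in input was not lower in libraries labelled Trim71KO. It was higher by 0.23 in experiment 1 (SE 0.09, edgeR adjusted p 0.0437) and by 0.42 in experiment 2 (SE 0.08, edgeR adjusted p 0.000411). The call in experiment 1 was lost on leaving out tagged input replicate 2 or 3 or any Trim71KO input replicate, at 0.18 to 0.23. Which part of Trim71 was altered is not given in the sources used here, so this RNA level does not check the label, and every direction below belongs to libraries labelled Trim71KO. Embryonic stem cell markers summed to 5952 to 8120 CPM in input, with 8 of 8 having a row. Primitive endoderm markers (Gata6, Gata4, Sox17, Dab2, Pdgfra) summed to 52.6 to 66.6 CPM in tagged input of experiment 1 and to 9.65 to 10.6 CPM in Trim71KO input. In experiment 2 the sums were 18.5 to 21.3 CPM in tagged, 5.90 to 7.52 CPM in Trim71KO and 8.24 to 9.98 CPM in Ago2KO input. Their part in the results below was not tested. In bulk RNA, fewer cells of a type and less RNA per cell cannot be told apart.

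In input RNA of untagged cells the 4 genes kept the same order in both experiments on a scale of CPM per kilobase of the length column, where CPM is the read count scaled to library size with TMM factors. Pank2 was highest, at 11 ± 0.46 (SD, n = 3) CPM per kilobase in experiment 1 and 16.1 ± 0.21 in experiment 2. Pank4 followed at 8.50 ± 0.37 and 8.62 ± 0.59, and Pank3 at 3.18 ± 0.31 and 5.68 ± 0.10. Pank1 was lowest, at 1.44 ± 0.10 and 1.86 ± 0.15. Each pair of neighbours in this order differed by more than the sum of their SDs. The order was the same in the input of the other genotypes, except that Pank4 (7.85 ± 0.27) and Pank3 (7.81 ± 1.18) did not differ beyond their spread in Trim71KO input of experiment 2. In tagged IP, Pank3 was highest per length, at 152 ± 13.3 and 112 ± 23.8 CPM per kilobase. Levels were not compared between the experiments, which were scaled separately. The authors' deposited RPKM values differed from these TMM-scaled values of CPM per kilobase by at most 2.72% over the 168 values of the 4 genes.

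Pank3 was the member recovered most strongly with tagged Tnrc6a. In experiment 1 its IP level was 1038, 1088 and 1226 CPM in the 3 libraries of tagged cells and 37.4, 37.8 and 32.5 CPM in those of untagged cells. Input held 31.0, 27.0 and 26.0 CPM in tagged cells and 25.7, 21.1 and 23.6 CPM in untagged cells. The IP groups do not overlap, and the lowest tagged IP library lies far above every input library. In experiment 2 the tagged IP held 1008, 803 and 658 CPM, against 37.1, 35.8 and 32.3 CPM in untagged IP. Tagged input held 49.9, 42.5 and 41.9 CPM and untagged input 41.1, 42.5 and 42.2 CPM. Again the IP groups do not overlap, with a wider spread among tagged IP libraries than in experiment 1, while the inputs overlap.

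**Figure D1:**
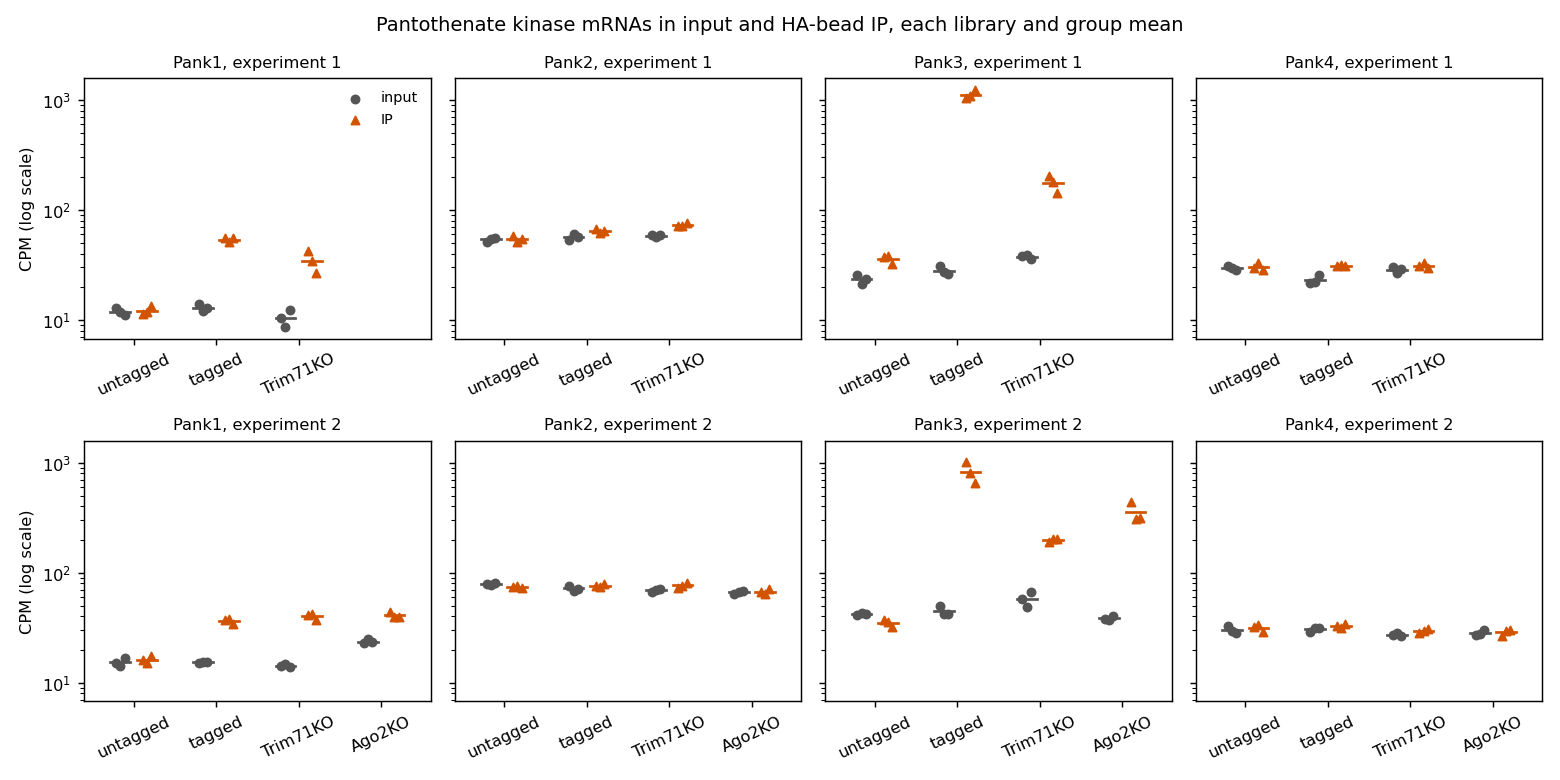
CPM (log scale) of each member in every input (circles) and IP (triangles) library, by genotype, for experiment 1 (top) and experiment 2 (bottom), with lines at the group means of 3 libraries. Pank3 IP lies highest in tagged cells, at 1038 to 1226 and 658 to 1008 CPM, and Pank2 and Pank4 lie close to their input in every genotype.

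The ratio of IP to input gives the recovery on the beads. For Pank3 it was 39.9-fold in tagged cells of experiment 1 (log2 5.32, SE 0.14) and 18.4-fold in experiment 2 (log2 4.20, SE 0.14). Among all genes tested, 99.7% and 99.8% had a lower ratio in tagged cells. Tag-specific enrichment is the difference between this log2 ratio in tagged and in untagged cells. For Pank3 it was 4.71 in experiment 1 (SE 0.17), rank 112 from the highest of 18772 genes. In experiment 2 it was 4.46 (SE 0.19), rank 27 from the highest of 19778 genes. Both are given without a test, because the tagged libraries entered the values that chose Pank3.

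Pank1 was recovered too, at a lower ratio. Its IP level in tagged cells of experiment 1 was 55.4, 51.0 and 55.1 CPM, against 13.9, 12.2 and 12.8 CPM in input, and untagged IP held 11.2, 11.8 and 13.4 CPM. In experiment 2 tagged IP held 37.4, 37.6 and 34.4 CPM, against 15.0, 15.5 and 15.3 CPM in input, and untagged IP held 16.1, 14.9 and 17.5 CPM. Tagged IP lies above tagged input and above untagged IP in every library of both experiments. Tag-specific enrichment was 2.02 in experiment 1 (SE 0.20, edgeR adjusted p 7.6e-09) and 1.18 in experiment 2 (SE 0.12, edgeR adjusted p 3.98e-09).

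Pank2 did not pass the test in either experiment, with a tag-specific enrichment of 0.15 (95% interval -0.08 to 0.39, edgeR adjusted p 0.265) and 0.17 (0.01 to 0.34, edgeR adjusted p 0.116). Its tagged IP libraries held 67.7, 62.3 and 63.7 CPM in experiment 1 and 75.8, 74.4 and 78.0 CPM in experiment 2. Tagged input held 53.8, 60.8 and 57.3 CPM and then 76.3, 68.6 and 70.6 CPM, so that input and IP lie apart in experiment 1 and overlap in experiment 2. Pank2, the most abundant member per length in input, had a ratio of IP to input of 1.13-fold and 1.06-fold in tagged cells.

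Pank4 passed in experiment 1, with 0.39 (SE 0.14, edgeR adjusted p 0.018), and not in experiment 2, with 0.03 (95% interval -0.19 to 0.25, edgeR adjusted p 0.879). In experiment 1 its IP level was 30.8, 31.3 and 31.0 CPM in tagged cells and 29.4, 33.2 and 28.2 CPM in untagged cells, which overlap. Its input was 21.9, 22.1 and 25.8 CPM in tagged cells and 30.9, 29.8 and 28.3 CPM in untagged cells, which do not. The difference in ratio in experiment 1 therefore goes with a lower tagged input, not with a higher tagged IP. In experiment 2 tagged input held 29.1, 31.6 and 31.4 CPM and tagged IP 32.5, 31.1 and 34.1 CPM.

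Among the paralogs, Pank1 and Pank4 passed for tag-specific enrichment in experiment 1, where 56.9% of all genes tested passed in either direction. In experiment 2 only Pank1 did, with 27.7% of all genes. The background is high in experiment 1, so these calls say little there. The values of Pank1, and of Pank3 as a description, carry the comparison.

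**Figure D2:**
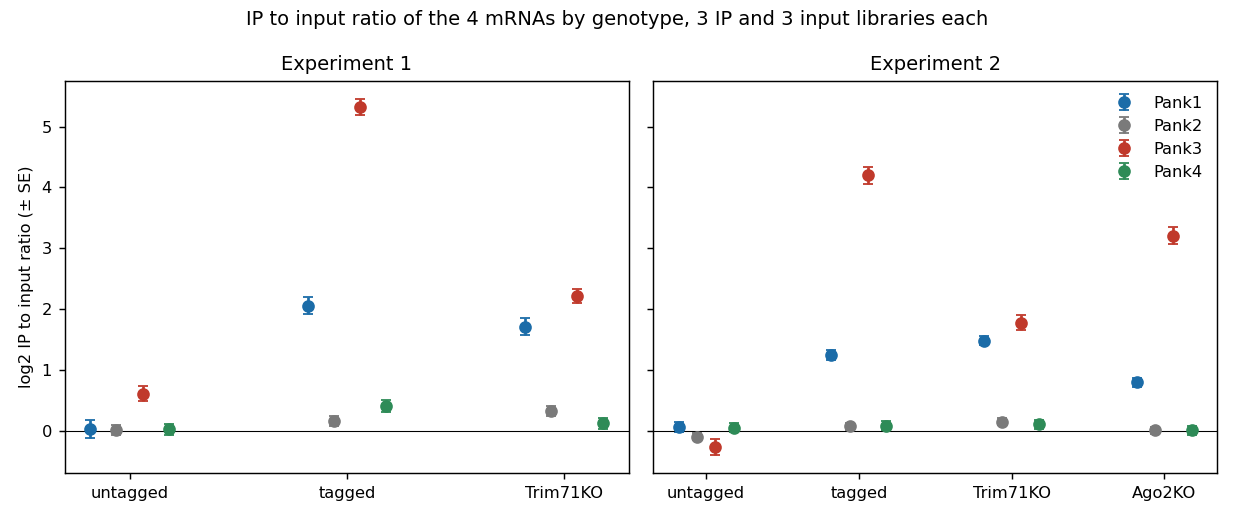
Log2 ratio of IP to input (± SE, from 3 IP and 3 input libraries) for each member by genotype, with experiment 1 on the left and experiment 2 on the right. Pank3 stands at 5.32 and 4.20 in tagged cells and Pank1 at 2.06 and 1.25, while Pank2 and Pank4 lie near 0 throughout.

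Untagged cells give the background of the beads, from libraries that the choice of Pank3 did not use. The ratio of IP to input there was 1.53-fold for Pank3 in experiment 1 (log2 0.61, SE 0.12, edgeR adjusted p 0.00119). It was 0.84-fold in experiment 2 (log2 -0.26, SE 0.14, edgeR adjusted p 0.442). Pank1, Pank2 and Pank4 lay between 1.01-fold and 1.03-fold in experiment 1 and between 0.94-fold and 1.05-fold in experiment 2. So 1 of 4 members passed in experiment 1, where 12.1% of all genes did, and 0 of 4 in experiment 2, where 0.728% did. In experiment 2, 0 of the 4 had an unadjusted p under 0.05 in edgeR and 0 passed with DESeq2. Scaled by library size alone, the Pank3 difference in experiment 1 no longer passed, at 0.22 (edgeR adjusted p 0.124). The other members turned to -0.37 to -0.36 and passed as lower, with the median of all genes at -0.42.

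Libraries labelled Trim71KO held much less Pank3 RNA on the beads, which is the value that chose it. In experiment 1 the IP held 203, 179 and 143 CPM, below the 1038 to 1226 CPM of tagged cells in every library. In experiment 2 the IP held 190, 201 and 203 CPM, below the 658 to 1008 CPM of tagged cells. The group mean in IP was 0.157 times and 0.241 times that of tagged cells, while the mean in input was 1.34 times and 1.29 times. Input and IP thus moved in opposite directions.

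As a ratio of IP to input, Pank3 was at 4.65-fold in Trim71KO cells of experiment 1 and 3.44-fold in experiment 2. The difference in log2 ratio from tagged cells was -3.10 (SE 0.17) and -2.42 (SE 0.18), ranks 16 and 18 from the lowest of all genes tested. Over all genes, 3.74% passed for this difference in experiment 1 and 1.49% in experiment 2 (295 genes, or 470 with the replicate block), from which nothing is read about the members. The Tnrc6a RNA itself stood at 22950 CPM in tagged IP of experiment 1 and at 92.4 CPM in untagged IP. Its ratio had a difference of -0.86 (SE 0.24, edgeR adjusted p 0.0476) in experiment 1 and -0.40 (SE 0.28, edgeR adjusted p 0.542) in experiment 2. In experiment 1 the Trim71KO mean was 0.766 times the tagged mean in IP, where the groups overlap, and 1.39 times in input. Tagged input replicate 2 held 57.1 CPM of Tnrc6a RNA there, against 95.1 and 81.9 CPM in the other tagged inputs. The part of Tnrc6a RNA in the Pank3 value was not tested.

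In the paralogs the differences were smaller. Pank1 IP of experiment 1 held 42.0, 34.0 and 26.9 CPM in Trim71KO cells, below the 51.0 to 55.4 CPM of tagged cells, and 41.2, 42.0 and 37.1 CPM in experiment 2, which overlaps with the 34.4 to 37.6 CPM of tagged cells. Its difference in log2 ratio was -0.35 (SE 0.20) and 0.23 (SE 0.11), of opposite sign in the 2 experiments. Pank2 had 0.16 (SE 0.11) and 0.07 (SE 0.08), and Pank4 had -0.29 (SE 0.14) and 0.02 (SE 0.11).

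In Trim71KO cells the ratio of IP to input of Pank1 was 3.27-fold and 2.80-fold, beside the 4.65-fold and 3.44-fold of Pank3. Over untagged cells, the log2 ratio of Pank3 was 1.61 (SE 0.17) in experiment 1 and 2.04 (SE 0.19) in experiment 2. That of Pank1 was 1.68 (SE 0.20) and 1.41 (SE 0.12). These are descriptions, since they use the libraries that chose Pank3.

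Ago2KO cells kept more Pank3 on the beads than Trim71KO cells and less than tagged cells. The Ago2KO IP held 442, 309 and 312 CPM, below all tagged IP libraries, above all Trim71KO IP libraries and above the 37.1 CPM that is the highest untagged IP value. Input held 38.0, 36.9 and 40.2 CPM, below the 41.9 to 49.9 CPM of tagged input. The groups do not overlap in IP for any pair of genotypes.

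The ratio of IP to input for Pank3 was 9.23-fold in Ago2KO cells against 18.4-fold in tagged cells. This Ago2-dependent difference was -0.99 on the log2 scale (SE 0.18). It is given without a test, because the tagged libraries entered the values that chose Pank3. Against untagged cells, where no library of the choice enters, enrichment without Ago2 was 3.46 (SE 0.19, edgeR adjusted p 7.64e-13), an 11.03-fold higher ratio. The Pank3 ratio in Trim71KO cells was 0.373 times that in Ago2KO cells, a log2 difference of -1.42 (SE 0.18), given without a test because the Trim71KO libraries chose the gene. All these comparisons share tagged, untagged or knockout libraries with each other.

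Pank1 RNA stood higher without Ago2 in IP as well as in input. Its IP held 44.2, 39.7 and 39.5 CPM in Ago2KO cells, above the 34.4 to 37.6 CPM of tagged cells. Its input held 22.8, 24.7 and 23.5 CPM, above the 15.0 to 15.5 CPM of tagged cells. Neither pair of groups overlaps.

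The Pank1 ratio of IP to input was 1.74-fold in Ago2KO cells and 2.39-fold in tagged cells, a difference of -0.46 on the log2 scale (SE 0.11, edgeR adjusted p 0.0119). This lower ratio goes with an input mean that was 1.55 times that of tagged cells and an IP mean that was 1.13 times. Scaled by library size alone the difference was -0.35 and did not pass (edgeR adjusted p 0.0755). Over untagged cells Pank1 was still enriched without Ago2, by 0.73 (SE 0.11, edgeR adjusted p 1.55e-05).

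Pank2 and Pank4 had Ago2-dependent differences of -0.07 (95% interval -0.24 to 0.10, edgeR adjusted p 0.823) and -0.07 (-0.29 to 0.15, edgeR adjusted p 0.869). Without Ago2 they stood at 0.11 (-0.06 to 0.27) and -0.04 (-0.27 to 0.18) over untagged cells. Of the paralogs, only Pank1 passed for Ago2-dependent enrichment, where 4.16% of all genes tested passed. Pank3 is left out of this count, because the tagged libraries entered its choice. Without Ago2 over untagged cells 2 of 4 members passed, both higher, where 20.9% of all genes did.

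In input RNA, which reports the level in the whole lysate, Pank3 stood higher in libraries labelled Trim71KO than in tagged cells. In experiment 1 it stood at 38.0, 39.1 and 35.7 CPM, above the 26.0 to 31.0 CPM of tagged cells, with no overlap. The log2 difference was 0.43 (SE 0.12). Experiment 2 gave 58.0, 48.8 and 66.1 CPM, and the lowest of these lies below the highest tagged library (49.9 CPM). The log2 difference was 0.37 (SE 0.13), or 0.30 scaled by library size alone. Both are given without a test, because these input libraries entered the ratios that chose Pank3.

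Leaving out single libraries, the difference lay between 0.36 and 0.48 in the first experiment. In the second it lay between 0.26 and 0.47. Markers of other cell types moved in the same input comparisons. The 5 primitive endoderm markers fell. Gata6 fell by 4.66 on the log2 scale in experiment 1 and fell by 2.74 in experiment 2. Fibroblast markers, of which 2 of 4 had a row (Thy1 and Col1a1), summed to 22.6 to 24.5 CPM in tagged and 58.0 to 61.8 CPM in Trim71KO input of experiment 1, and to 34.2 to 35.8 and 49.5 to 51.9 CPM in experiment 2. The 3 neural markers summed to 17.2 to 20.4 and 12.1 to 14.6 CPM in experiment 1, and to 21.4 to 23.7 and 12.3 to 17.0 CPM in experiment 2. Stem cell markers were higher in Trim71KO input, at 7165 to 7338 CPM against 6197 to 6707 CPM and at 7886 to 8120 CPM against 6902 to 7111 CPM. The part of these markers in the input values of the members was not tested.

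Pank4 input was 30.2, 26.4 and 28.8 CPM in Trim71KO cells of experiment 1, above the 21.9 to 25.8 CPM of tagged cells, and it rose by 0.29 (SE 0.10, edgeR adjusted p 0.0215). Its change in experiment 2 was -0.17 (95% interval -0.32 to -0.01, edgeR adjusted p 0.11), the opposite sign. The call in experiment 1 was lost on leaving out tagged input replicate 1 or 2, or Trim71KO input replicate 1 or 3, at 0.23 to 0.27. Pank1 had -0.31 (-0.61 to -0.01, edgeR adjusted p 0.106) and -0.10 (-0.27 to 0.08, edgeR adjusted p 0.435). Without Trim71KO input replicate 3 the Pank1 value in experiment 1 passed, at -0.46 (edgeR adjusted p 0.0435). Pank2 had 0.02 (-0.14 to 0.19) and -0.06 (-0.18 to 0.06). Of the 3 paralogs, 1 passed in experiment 1, where 34% of all genes tested did, and 0 in experiment 2, where 27.2% did. In experiment 2, 1 of the 3 had an unadjusted edgeR p under 0.05 and 0 passed with DESeq2. With a background this high the counts say little about the members.

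Without Ago2, Pank1 was the member whose input level rose. Its log2 change from tagged to Ago2KO cells was 0.63 (SE 0.08, edgeR adjusted p 6.95e-06), on the library values given above. Pank2 and Pank4 each had -0.11 (edgeR adjusted p 0.283 and 0.447). Of the paralogs, only Pank1 passed, where 6.96% of all genes did. Pank3 had -0.22 (SE 0.13), given without a test because the tagged input libraries entered the ratios that chose it. Of the primitive endoderm markers, 3 of 5 also passed in this comparison, where Gata6 fell by 1.71. Stem cell markers summed to 7880 to 7948 CPM in Ago2KO input against 6902 to 7111 CPM in tagged input, neural markers to 24.3 to 26.8 against 21.4 to 23.7 CPM, and fibroblast markers to 29.9 to 35.1 against 34.2 to 35.8 CPM. Mesoderm markers summed to 11.3 to 12.5 against 10.8 to 12.2 CPM. Trophoblast markers, of which 1 of 3 had a row, summed to 10.1 to 10.6 against 9.28 to 10.8 CPM. The part of these markers in the Pank1 result was not tested.

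**Figure D3:**
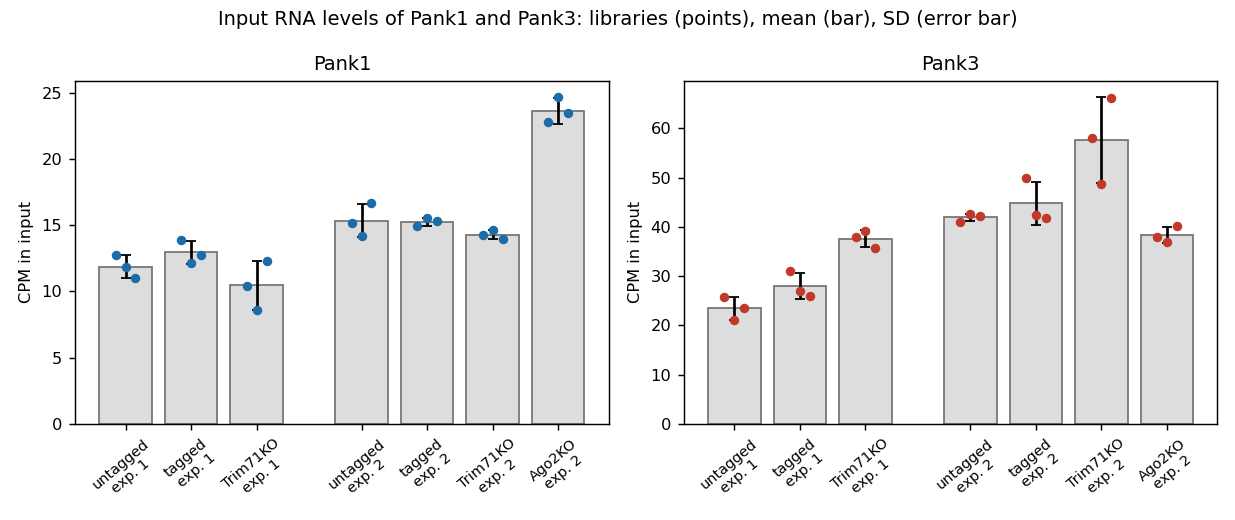
CPM of Pank1 (left) and Pank3 (right) in input RNA, as single libraries (points), mean (bars) and SD (error bars, n = 3), for both experiments. Pank1 is highest in Ago2KO cells, at 22.8 to 24.7 CPM, and Pank3 is highest in Trim71KO cells of each experiment, at 35.7 to 39.1 and 48.8 to 66.1 CPM.

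A direct comparison of the knockouts set the input of Trim71KO against that of Ago2KO cells. Pank1 was lower in Trim71KO, by -0.73 (SE 0.08, edgeR adjusted p 1.29e-07), with 14.3, 14.7 and 13.9 CPM against 22.8, 24.7 and 23.5 CPM. Pank3 was higher in Trim71KO, by 0.59 (SE 0.13), with 48.8 to 66.1 CPM against 36.9 to 40.2 CPM, given without a test because the Trim71KO input libraries entered the choice of the gene. Neither gene's groups overlap, and the genes differ in opposite directions. Pank2 (0.05, -0.07 to 0.17) and Pank4 (-0.05, -0.21 to 0.11) did not pass. So 1 of the 3 paralogs passed, where 28.4% of all genes did.

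Between tagged and untagged input, Pank4 fell by 0.35 on the log2 scale in experiment 1 (SE 0.10, edgeR adjusted p 0.0203). Of the paralogs, only Pank4 passed there, where 10.6% of all genes did. The call was lost without untagged input replicate 1 or 2 or tagged input replicate 1 or 2, at -0.32 to -0.28. In experiment 2, 0 of 4 passed in edgeR and 0 in DESeq2, where 1.39% of all genes passed in edgeR. An unadjusted edgeR p under 0.05 was reached there by 1 of 4, Pank2, at -0.14. Tagged input replicate 2 of experiment 1 also held less Ago2 RNA (179 CPM) than the other tagged inputs (357 and 255 CPM). Without this library, tag-specific enrichment in experiment 1 was 2.04 for Pank1, 0.25 for Pank2 (edgeR adjusted p 0.0709), 4.74 for Pank3 and 0.41 for Pank4, with the same calls for the paralogs. The Trim71-dependent difference was -0.24, 0.17, -3.01 and -0.19 for Pank1 to Pank4, and Trim71KO input differed by -0.34, 0.08, 0.41 and 0.26, with the Pank4 call lost. Tagged against untagged input was 0.17, 0.05, 0.28 and -0.31, where the Pank4 call was lost too. Of the genes of both pathway lists described below that passed with it, 2 of 19 were lost without it for tag-specific enrichment, 2 of 13 for Trim71KO input and 4 of 7 for tagged against untagged input.

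The 5 genes whose IP pattern was most like that of Pank3 were Rcor1, Spty2d1, Etv3, Mob1b and Senp5. Likeness was the lower of 2 Pearson correlations, over 9 IP libraries in experiment 1 and 12 in experiment 2, of log2 CPM in IP minus the mean log2 CPM of the genotype's input, among 12446 genes. The likeness was 0.994 for Rcor1, 0.993 for Spty2d1, 0.989 for Etv3, 0.988 for Mob1b and 0.984 for Senp5. The correlations are descriptions, since the points share genotypes and inputs and most of the spread lies between genotypes. By ranks in place of values, the same measure was 0.933 to 0.95 for these genes, which then stood at rank 13 to 29 with Pank3 itself counted, so that other genes were more alike by that measure.

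Spty2d1 came closest to Pank3 in size, with 25.9-fold in tagged and 4.71-fold in Trim71KO cells of experiment 1. Its ratios in experiment 2 were 10.4-fold in tagged, 2.83-fold in Trim71KO and 6.83-fold in Ago2KO cells. The other 4 genes reached 6.43-fold to 9.18-fold in tagged cells of experiment 1 and 2.999-fold to 4.12-fold in experiment 2. All 5 had, as Pank3 did, a lower ratio in Trim71KO than in Ago2KO cells. Their choice by likeness to Pank3 over these libraries favoured this order, so it is a description. Pank1 had a likeness of 0.662, Pank2 of 0.289 and Pank4 of -0.05, or 0.378, 0.392 and -0.08 by ranks. For Pank4 the experiments disagreed, with Pearson correlations of 0.935 in experiment 1 and -0.048 in experiment 2. Those of Pank1 were 0.848 and 0.662.

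**Figure D4:**
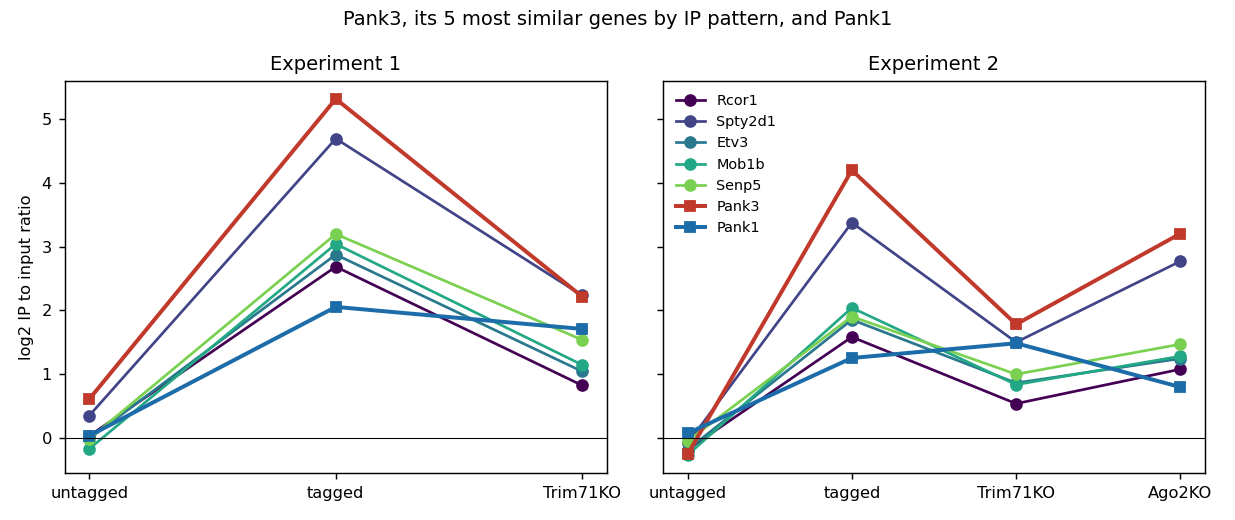
Log2 ratio of IP to input by genotype for Pank3, the 5 genes with the most similar IP pattern, and Pank1, in experiment 1 (left) and experiment 2 (right). The 5 genes, chosen for their likeness to Pank3 over these libraries, and Pank3 are lowest among tagged lines in Trim71KO cells. Pank1 in experiment 2 is at 1.49 in Trim71KO and 0.80 in Ago2KO cells.

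The rest of the coenzyme A pathway was followed in a list of 13 genes for later synthesis steps, transport, breakdown and use, of which 11 had a row. For tag-specific enrichment, 5 were higher and 4 lower in experiment 1, with a median of 0.02 against -0.10 for all genes tested. In experiment 2, 4 were higher and 1 lower, with a median of 0.15 against -0.03. The share of all genes that passed in either direction was 56.9% in experiment 1 and 27.7% in experiment 2, so these counts are read as a description of the list. Slc25a42, a mitochondrial coenzyme A carrier, had 2.25 (SE 0.15, edgeR adjusted p 1.01e-11) and 1.45 (SE 0.20, edgeR adjusted p 1.44e-06). Nudt7, a peroxisomal coenzyme A hydrolase, had 2.93 (SE 0.36, edgeR adjusted p 2.64e-07) and 1.84 (SE 0.31, edgeR adjusted p 3.97e-05). Slc25a16, a further carrier, had 1.23 and 1.06. Ppcs, the enzyme that follows the kinase, had 0.81 and 0.57. Its call in experiment 2 was lost without tagged input replicate 1, tagged IP replicate 1, untagged input replicate 3 or untagged IP replicate 2, at 0.44 to 0.53.

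Of these 11 genes, 0 passed in edgeR for Trim71-dependent enrichment in either experiment, where 3.74% and 1.49% of all genes did. For Ago2-dependent enrichment 0 passed too, where 4.16% of all genes did. With shares this low, 0 of 11 says little about the list. An unadjusted edgeR p under 0.05 was reached by 3 and 2 genes for Trim71 and by 1 for Ago2, and DESeq2 called 0, 0 and 1. The medians were -0.13 and 0.00 for Trim71 and -0.04 for Ago2, against -0.04, 0.01 and 0.00 for all genes. In input of Trim71KO cells 1 was higher and 6 lower in experiment 1, and 1 higher and 2 lower in experiment 2, where 34% and 27.2% of all genes passed in either direction. Nudt8, a mitochondrial coenzyme A hydrolase, fell by 0.43 (SE 0.14, edgeR adjusted p 0.0259) and fell by 0.69 (SE 0.13, edgeR adjusted p 0.000176). The call of Nudt8 in experiment 1 was lost without tagged input replicate 2 (edgeR adjusted p 0.0531), tagged input replicate 3 or Trim71KO input replicate 2 or 3.

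A second list held 16 enzymes that make or use acyl-CoA, all with a row. For tag-specific enrichment 3 were higher and 7 lower in experiment 1, and 3 higher and 1 lower in experiment 2, beside the 56.9% and 27.7% of all genes that passed. Cs, citrate synthase, had 2.11 (SE 0.13, edgeR adjusted p 7.72e-13) and 1.51 (SE 0.10, edgeR adjusted p 6.9e-12). Acsl6 and Acsl4, long-chain acyl-CoA synthetases, had 2.16 and 1.07 in experiment 1 and 1.19 and 0.50 in experiment 2. Acat1, mitochondrial acetyl-CoA acetyltransferase, was lower in both, at -1.64 and -0.30. Its call in experiment 2 was lost without tagged input replicate 2, tagged IP replicate 1 or 3, untagged input replicate 1 or untagged IP replicate 3, at -0.29 to -0.25. For Trim71-dependent enrichment 0 of 16 were higher and 1 lower in experiment 1, and 0 passed in experiment 2 in edgeR or DESeq2, with 0 at an unadjusted p under 0.05. The shares of all genes that passed in edgeR were 3.74% and 1.49%, so these counts say little about the list.

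For Ago2-dependent enrichment 2 of 16 passed, where 4.16% of all genes did, Acsl4 at -0.61 (SE 0.10, edgeR adjusted p 3e-04) and Cs at -0.46 (SE 0.10, edgeR adjusted p 0.00672). Both also rose in Ago2KO input, Acsl4 by 0.38 (SE 0.07, edgeR adjusted p 0.000899) and Cs by 0.38 (SE 0.07, edgeR adjusted p 0.00153). Their mean level in IP was 0.854 times that of tagged cells for Acsl4 and 0.942 times for Cs. For Pank1, which had the same signs in ratio and input, it was 1.13 times. Acsl5 rose in Ago2KO input by 0.39, and 0 of 16 fell there, where 6.96% of all genes passed. The Acsl5 call was lost without Ago2KO input replicate 1 or 3 or any tagged input replicate, at 0.31 to 0.42. In Trim71KO input 5 of 16 were higher and 1 lower in experiment 1, and 3 were higher and 4 lower in experiment 2. Of all genes, 34% and 27.2% passed there in either direction. Acss1, a mitochondrial acetyl-CoA synthetase, rose by 1.41 and 0.97, and Acsl1 rose by 0.77 and 0.44.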

How the data were processed

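RIP-seq libraries (42) were grouped by their titles and descriptions. The authors deposited raw read counts and RPKM per gene, with a gene length column named for QuasR, per the file headers. The submitters' processing notes name bcl2fastq 2.20, STAR 2.7.3a and GRCm38 (mm10). Counting settings and strand are not given in the sources used here. The RPKM values served as a cross-check of levels per length, and 0 value columns were left unmapped.

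The quasi-likelihood F test of edgeR 4.0.16 (R 4.3.3) was run on the counts, with TMM and filterByExpr, in a fit of all groups of each experiment (18772 and 19778 genes tested). A gene passed where its p, adjusted by Benjamini-Hochberg across the genes of the fit, was under 0.05. Enrichment comparisons are interactions of IP and input. SE and 95% intervals come from the same fit. On simulated counts, 93 of 100 genes changed by 1 on the log2 scale and 100 of 100 changed by 2 were recovered for Trim71-dependent enrichment in experiment 1, with 14 false calls among 207 over 18334 genes. For Ago2-dependent enrichment it was 97 of 100 and 100 of 100, with 7 false calls among 204 over 19444 genes. Apart from these changes, the simulation gave each gene the same mean in all groups, with its spread taken from the fitted trend. Only genes with an expected count over 100 were changed. The recovery therefore does not measure power on the real libraries.

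The 4 members, the lists and the comparisons were chosen with earlier results of these data known. Named genes are the members, the targeted genes, the 5 genes most like Pank3, and list genes that passed in the same direction in both experiments, up to 4 by smallest p (in experiment 2 alone where only it has the comparison). Replicates differed beyond sampling noise in all 42 pairs (chi-square per gene 2.87 to 64.1, over genes with at least 50 counts). Counting precision ignores duplicate molecules. Same-numbered replicates deviated together (every correlation over 0.1) for tagged and Trim71KO libraries of experiment 2, at 0.206 to 0.299 in input and 0.183 to 0.333 in IP, and for tagged IP and input there, at 0.104 to 0.183. Alternatives were RLE size factors, library size alone, no filter, DESeq2 1.42.0, only the groups compared, 2 replicate blocks, and leaving out each library. RefSeq (GRCm38.p6) gave coordinates and microRNA sequences, with 4 of 4 members and 3 of 3 microRNA genes matched.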

Additional observations from a re-analysis of the deposited data

Results flagged for a closer look

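The input level of Pank1 differed between the 2 knockouts when their input libraries were tested directly against each other. The Trim71KO minus Ago2KO difference was -0.73 for Pank1 (SE 0.08, edgeR adjusted p 1.29e-07), with every Trim71KO library lower. The call held on leaving out each of the 6 libraries in turn, at -0.74 to -0.66. For Pank3 the difference was 0.59 (SE 0.13), with every Trim71KO library higher, and it ran from 0.48 to 0.69 on leaving out single libraries. It is a description without a test, since the Trim71KO input libraries entered the choice of Pank3.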

How the results depend on the processing

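Of 68 member results, 23 are descriptions with no call. Of the other 45, 36 kept their call in every alternative run and 9 did not. Among the 36, values near 0 that never passed could change sign. Those that kept their call include tag-specific enrichment of Pank1, Pank2 and Pank4 in both experiments. Counted among the 45 are Pank3 results that use tagged libraries. These are also descriptions, because those libraries entered its choice, and their calls are not read as tests. With the replicate block within fraction, Pank3 of experiment 2 had -2.39 as its Trim71-dependent value and 0.36 in Trim71KO input, and neither replicate block changed a member call. Under library size alone, the Pank3 ratio in untagged cells of experiment 1 no longer passed, at 0.22. The ratios of Pank1 (-0.358), Pank2 (-0.37) and Pank4 (-0.365) turned negative there. They passed as lower under that scaling (edgeR adjusted p 0.0437, 0.00115 and 0.00315). That scaling also gave 0.26 for Pank2 and -0.18 for Pank4 (Trim71-dependent, experiment 1), -0.35 for Pank1 (Ago2-dependent, call lost) and 0.30 for Pank3 (Trim71KO input, experiment 2). For enrichment without Trim71 over untagged it gave 0.45 for Pank2 and 0.245 for Pank4 in experiment 1, and 1.26, 0.09, 1.89 and -0.10 for Pank1 to Pank4 in experiment 2. It moved the median of all genes by -0.39 in untagged IP of experiment 1, by -0.21 for tag-specific enrichment in experiment 2, by 0.14 and -0.15 for enrichment without Trim71 over untagged, and by 0.11 for Ago2-dependent enrichment and Trim71-dependent enrichment of experiment 1. With only the groups compared, enrichment without Trim71 in experiment 1 was 0.41 for Pank2 and 0.20 for Pank4. Pank3 in Ago2KO input was then at -0.23, a description without a test. The causes were not tested.

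Leaving out single libraries, Trim71-dependent enrichment in experiment 1 ran from -0.45 to -0.11 for Pank1, 0.13 to 0.29 for Pank2, -3.16 to -2.88 for Pank3 and -0.29 to -0.16 for Pank4. In experiment 2 it ran from 0.16 to 0.25 for Pank1, -0.013 to 0.10 for Pank2, -2.59 to -2.25 for Pank3 and -0.049 to 0.049 for Pank4. Enrichment without Trim71 over untagged ran from 1.61 to 1.96, 0.38 to 0.48, 1.59 to 1.87 and 0.16 to 0.29 for Pank1 to Pank4 in experiment 1, and from 1.34 to 1.46, 0.17 to 0.26, 1.93 to 2.15 and -0.042 to 0.089 in experiment 2. Trim71KO against Ago2KO enrichment ran from 0.06 to 0.17 for Pank2 and -1.55 to -1.23 for Pank3. Trim71KO input ran from -0.46 to -0.19 for Pank1, 0.36 to 0.48 for Pank3 and 0.23 to 0.36 for Pank4 in experiment 1, and 0.26 to 0.47 for Pank3 in experiment 2. Tagged against untagged input of Pank4 in experiment 1 ran from -0.40 to -0.28.

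Counts of all genes passing moved by over 1.5 times for 7 comparisons. They ran, over alternatives, from 339 to 1435 (703 as reported) and 98 to 562 (295) for Trim71-dependent enrichment, and from 1146 to 10201 (2273) and 70 to 574 (144) in untagged cells. Input counts ran from 722 to 3053 (1983) and 154 to 497 (275) for tagged against untagged, and from 774 to 2481 (1376) for Ago2KO. Among list and targeted genes, 168 alternative values lost a call and none reversed. The lowest member count in a library was 152, for Pank1.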
